A study of Mus musculus with 12 samples.

Results

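Non-muscle myosin II and the genes that control its light chain were followed in regulatory T cells of lymph nodes, the CD4 T cells that hold immune responses in check. The group was set by a list of 10 gene symbols for myosin heavy chains, light chains, light chain kinases and the myosin phosphatase. A row carrying the symbol was found for 9 of the 10, out of 19505 genes with a row on the array, and values are given here for 8 of them. The 2 groups were 6 arrays of mice labelled NOD.Drak2-/- (replicates 1 to 5 and 7) and 6 arrays of NOD mice (replicates 1 to 6). All mice shared the NOD background, a strain that develops autoimmune diabetes, and were females aged 4 to 8 weeks, and each array held the RNA of 1 mouse. Drak2, encoded by Stk17b, is a serine/threonine kinase of the death-associated protein kinase family for which myosin light chain is a known substrate. The comparison asks whether the genes of this substrate and of its other kinases and its phosphatase were expressed at another level in mice labelled as lacking Drak2. The cells had been sorted as CD4+ CD8- CD25+ CD45RBlo. The sources used here do not say how the Drak2 allele was made.

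A non-muscle myosin II molecule holds a pair of heavy chains, each with an essential and a regulatory light chain. Phosphorylation of the regulatory chain switches on the motor and filament assembly, and the contraction that follows retracts the rear of a crawling T cell and shapes its contact with other cells. The kinases that add this phosphate include myosin light chain kinase, which calcium and calmodulin activate, and the small GTPase RhoA also promotes it. Myosin phosphatase, made of a catalytic and a targeting subunit, removes it. An array measures the RNA of these genes and not the phosphorylation of the chain.

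Values are log2 expression, and each difference is the NOD.Drak2-/- mean less the NOD mean on that scale. A signal was called above background when its mean exceeded 5.87, the mean of the brightest of 23 antigenomic rows, whose probes are designed to match no mouse sequence. The sorted cells carried T cell genes: 18 of 19 measured T cell and regulatory T cell markers lay above that row, among them Cd4 at 9.87 in NOD.Drak2-/- and 9.67 in NOD. The exception was Il2ra, which encodes the CD25 of the gate, at 5.00 in NOD.Drak2-/- and 4.82 in NOD, and Foxp3 was not analysed here. Of the CD8 genes, Cd8a was within the background range and Cd8b1 averaged 7.45 in NOD.Drak2-/- and 7.27 in NOD. Stk17b itself was above background in all 12 arrays, at 10.25 in NOD.Drak2-/- and 10.52 in NOD, so this row does not check the labels. In the arrays of NOD.Drak2-/- replicates 1 and 2 the brightest background row stood at 6.52 and 6.77, against 5.51 to 6.07 in the other 10 arrays. In all, 4 genes passed an adjusted p of 0.05 (limma, Benjamini-Hochberg over all 19505 genes), or 0.0205% of those tested, 3 of them higher (0.0154%) and 1 lower (0.00513%) in NOD.Drak2-/-.

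The windows upstream of the genes that make the motor itself are shown because these genes were above background in every array, and because Myh9, Myl12a and Myl12b varied together across arrays while Myl6 did not vary with Myh9. Each window is the 250 bases before a RefSeq start on GRCm38.p6 and is written 5′ to 3′ along the gene, which lies on the minus strand in all 4 cases. The positions are chr10:128493010-128493259 for Myl6 (the 2nd of its 2 listed starts), chr17:71002534-71002783 for Myl12a, chr17:70990517-70990766 for Myl12b and chr15:77842176-77842425 for Myh9. Capitals mark the CArG box, the recognition motif of serum response factor, and the GC box GGGCGG in either orientation, with overlapping matches counted.
Myl6: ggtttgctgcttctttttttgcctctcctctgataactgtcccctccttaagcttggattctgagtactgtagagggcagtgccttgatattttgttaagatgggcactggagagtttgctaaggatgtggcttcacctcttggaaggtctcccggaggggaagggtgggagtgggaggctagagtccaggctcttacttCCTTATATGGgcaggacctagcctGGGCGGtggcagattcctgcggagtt
Myl12a: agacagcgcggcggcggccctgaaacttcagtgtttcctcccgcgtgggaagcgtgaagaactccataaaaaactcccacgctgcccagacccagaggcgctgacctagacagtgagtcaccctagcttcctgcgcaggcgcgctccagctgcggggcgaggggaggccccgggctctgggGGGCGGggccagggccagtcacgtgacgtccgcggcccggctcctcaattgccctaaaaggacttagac
Myl12b: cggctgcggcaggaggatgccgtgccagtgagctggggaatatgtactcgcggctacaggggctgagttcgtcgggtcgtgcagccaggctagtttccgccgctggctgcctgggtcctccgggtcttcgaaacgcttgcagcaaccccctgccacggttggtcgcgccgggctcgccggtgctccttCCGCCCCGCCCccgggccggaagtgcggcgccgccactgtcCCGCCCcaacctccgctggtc
Myh9: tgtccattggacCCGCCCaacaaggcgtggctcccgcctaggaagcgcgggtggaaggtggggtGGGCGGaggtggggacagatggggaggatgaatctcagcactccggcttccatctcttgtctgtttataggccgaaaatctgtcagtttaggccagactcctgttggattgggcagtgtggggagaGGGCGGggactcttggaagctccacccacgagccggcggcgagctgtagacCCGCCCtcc
A CArG box stood in the Myl6 window shown, beginning 50 bases before the start, beside 1 GC box. The window of the other listed Myl6 start held 0 CArG boxes, 0 GC boxes and 1 CCAAT. The windows of Myl12a, Myl12b and Myh9 held 1, 3 and 4 GC boxes. Of all 32851 windows listed there, 1.47% held a CArG box and 32.7% a GC box. Of the 9 windows of the 8 measured genes with an entry, 1 held a CArG box and 5 a GC box. The motif CCAAT, in either orientation and with overlaps counted, was in 4 of the 9 windows and in 33.8% of all. The windows of Myl12a and Myl12b, neighbours on chromosome 17 with 0 genes between them in the RefSeq gene table, held no CCAAT. These matches are a description of letters and not evidence of binding.

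Across the group, 0 of 9 genes passed the adjusted p of 0.05 in limma in either direction, beside 0.0205% of all genes tested (0.0154% higher and 0.00513% lower). At an unadjusted p under 0.05 there were also 0 of 9, beside 9.43% of all genes, and 0 of 9 had groups that did not overlap, beside 0.513%. Adjusted p-values of the 8 genes described ran from 0.648 (Myh9) to 0.973 (Myl12a). The difference was positive for 3 genes and negative for 6, where 54.1% of all genes were negative. That split turned to 5 positive and 4 negative when arrays were centred on their medians, and 60.0% of all genes were then positive, against 45.9% without centring. It was also 5 positive and 4 negative without NOD.Drak2-/- replicates 1 and 2, where 46.1% of all genes were positive. Among genes above background alone, 3 members were positive and 4 negative, where 55.4% of those 8128 genes were positive. The median difference of the 9 genes was -0.04, and that of all genes tested was -0.02. Above background alone these medians were -0.014 for the 7 members and 0.027 for all genes. The median of the 9 was 0.0019 without NOD.Drak2-/- replicates 1 and 2 and -0.0086 without replicate 2 alone. The median size of the difference, regardless of sign, was 0.13 for the 9 genes and 0.13 for all genes. Because RNA came from sorted populations, fewer cells with a transcript and less transcript per cell cannot be told apart.

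**Figure D1:**
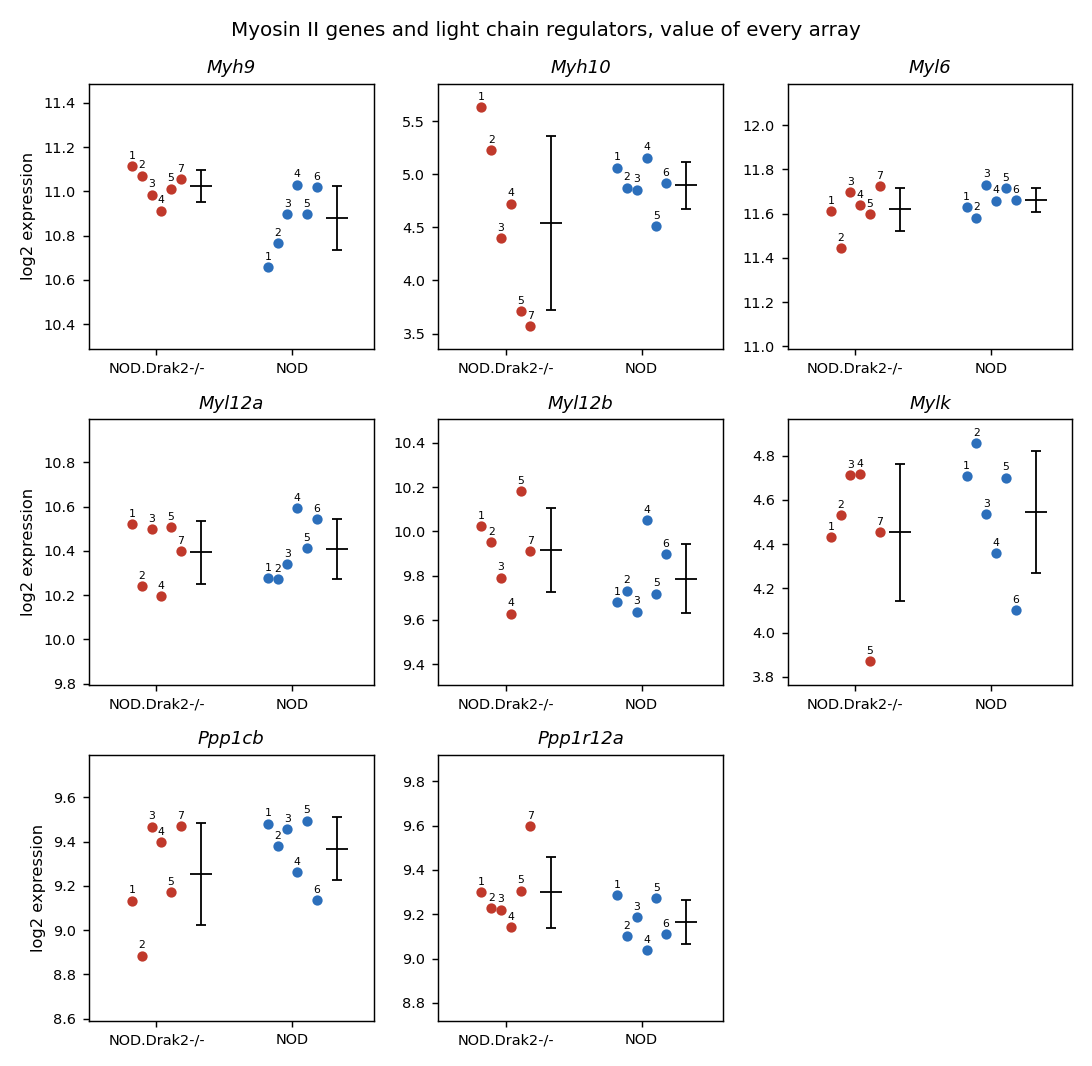
Log2 expression (vertical axis) of 8 genes in each array, NOD.Drak2-/- in red and NOD in blue, numbered by replicate, with black bars for mean ± SD (n = 6 each); panels span the same log2 width except Myh10, which is wider, and start above 0. The groups overlapped for every gene shown, and the spread was widest for Myh10, whose NOD.Drak2-/- arrays ran from 3.57 to 5.63.

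Of the heavy chains, Myh9, which encodes the non-muscle heavy chain IIA that predominates in T cells, was far above background in all 12 arrays. Its lowest, median and highest values were 10.91, 11.03 and 11.11 in NOD.Drak2-/- and 10.66, 10.90 and 11.03 in NOD. All 6 NOD.Drak2-/- arrays lay above the NOD mean, and 3 of them lay above the highest NOD array, so the groups overlapped in the upper part of the NOD range. Myh9 averaged 11.02 ± 0.07 in NOD.Drak2-/- and 10.88 ± 0.14 in NOD (SD, n = 6 each), a difference of 0.15 (SE 0.10, 95% interval -0.06 to 0.36, adjusted p = 0.648 in limma). In linear terms this was 1.11-fold, with an interval of 0.956 to 1.28-fold. A two-sided exact permutation test of Myh9 alone gave p = 0.0476, which was not adjusted for the 9 genes so tested. That p did not hold across all settings. It was 0.186 without NOD.Drak2-/- replicates 1 and 2, where fewer regroupings are possible, and 0.0541 after cyclic loess normalization. Under median centring it was 0.0195, and with quantile normalization repeated 0.0498. With 1 array left out at a time it stayed under 0.05 only when the array left out was NOD.Drak2-/- replicate 4 or either of NOD replicates 4 and 6 (0.0195 to 0.0281), and was 0.0584 to 0.0952 in the other 9 cases.

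Myh10, which encodes heavy chain IIB, was below the brightest background row of its own array in all 12 arrays. Its lowest, median and highest values were 3.57, 4.56 and 5.63 in NOD.Drak2-/- and 4.51, 4.89 and 5.16 in NOD. Within NOD.Drak2-/- the arrays stood far apart: replicates 1 and 2 gave 5.63 and 5.23, whereas replicates 5 and 7 gave 3.71 and 3.57, and 5 of the 6 lay outside the NOD range, on both sides of it. The SD was 0.82 in NOD.Drak2-/- and 0.22 in NOD, and the residual spread of Myh10 was larger than that of 98.1% of all genes. The difference was -0.35 (SE 0.29, 95% interval -0.96 to 0.26, adjusted p = 0.707 in limma). Without NOD.Drak2-/- replicates 1 and 2, the arrays with the bright background rows, it was -0.80 (adjusted p = 0.476), and without replicate 1 alone it was -0.57 (adjusted p = 0.587). It was smaller without NOD.Drak2-/- replicate 5 (-0.19, adjusted p = 0.879) or replicate 7 (-0.16, adjusted p = 0.876). No level can be read for a gene in this range, and the part of background in this spread was not tested. The other heavy chain genes, Myh14 of the non-muscle IIC form and Myh11 of smooth muscle, were below the background row in all 12 arrays as well.

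The essential light chain gene Myl6 had the steadiest signal of the group. Its lowest, median and highest values were 11.44, 11.62 and 11.72 in NOD.Drak2-/- and 11.58, 11.66 and 11.73 in NOD. Apart from NOD.Drak2-/- replicate 2, which was the lowest array, the 2 genotypes covered the same range. The difference was -0.04 (SE 0.09, adjusted p = 0.896 in limma), and the 95% interval reached from 0.847-fold to 1.11-fold. Its sign turned under median centring (0.022) and without NOD.Drak2-/- replicates 1 and 2 (0.0019). Only 0.323% of all genes had a smaller residual spread.

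The regulatory light chain, the phosphorylated subunit, is encoded by Myl12a and Myl12b in non-muscle cells and by Myl9 mainly in smooth muscle. Myl12a and Myl12b encode nearly identical proteins, so probes of one gene may also take up RNA of the other, and their values are uncertain to that degree. Myl12a had a lowest, median and highest value of 10.20, 10.45 and 10.52 in NOD.Drak2-/- and of 10.27, 10.38 and 10.59 in NOD. The 2 ranges nearly coincided, with a difference of -0.01 (SE 0.11, 95% interval -0.24 to 0.21, adjusted p = 0.973 in limma) whose sign changed with the processing. Myl12b had 9.63, 9.93 and 10.18 in NOD.Drak2-/- and 9.64, 9.73 and 10.05 in NOD. Here 5 of 6 NOD.Drak2-/- arrays lay above the NOD mean, but only 2 lay outside the NOD range, 1 at either end. The Myl12b difference was 0.13 (SE 0.12, 95% interval -0.12 to 0.38, adjusted p = 0.733 in limma). It was 0.075 without NOD.Drak2-/- replicate 5 and 0.072 with the brightest background row as a covariate. Without NOD.Drak2-/- replicate 4, and also under median centring, it was 0.19. Myl9 was below the background row of every array, at 5.11 in NOD.Drak2-/- and 5.05 in NOD, so 2 of the 3 regulatory light chain genes gave a readable signal in these cells.

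Of the kinases, Mylk, which encodes myosin light chain kinase, was below the background row in all 12 arrays. It averaged 4.45 ± 0.31 in NOD.Drak2-/- and 4.54 ± 0.28 in NOD (SD, n = 6 each), and the ranges of 3.87 to 4.72 in NOD.Drak2-/- and 4.10 to 4.86 in NOD overlapped. The difference of -0.09 (adjusted p = 0.873 in limma) turned positive without NOD.Drak2-/- replicate 5 (0.026) and after cyclic loess normalization (0.018). The related muscle kinase genes Mylk2 and Mylk3, at means of 3.40 and 2.91 in NOD.Drak2-/- and 3.49 and 3.11 in NOD, were also in that range.

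Of the phosphatase subunits, Ppp1cb encodes the catalytic subunit and Ppp1r12a the targeting subunit MYPT1. Ppp1cb had a lowest, median and highest value of 8.89, 9.28 and 9.47 in NOD.Drak2-/- and of 9.14, 9.42 and 9.50 in NOD. Here NOD.Drak2-/- replicates 1 and 2 were the lowest arrays, at 9.13 and 8.89, while replicates 3 and 7 were near the top of the NOD range. The difference was -0.11 (SE 0.12, 95% interval -0.37 to 0.15, adjusted p = 0.776 in limma), and it was 0.0072 without those 2 arrays (adjusted p = 0.992). Ppp1r12a had 9.14, 9.26 and 9.60 in NOD.Drak2-/- and 9.04, 9.15 and 9.29 in NOD. It lay above the NOD mean in 5 of 6 NOD.Drak2-/- arrays, with replicate 7 well above all others. The Ppp1r12a difference was 0.13 (SE 0.10, 95% interval -0.09 to 0.36, adjusted p = 0.694 in limma, two-sided exact permutation p = 0.0996), and without replicate 7 it was 0.07 (adjusted p = 0.846). The 2 subunits of this enzyme thus had differences of opposite sign, each smaller than the error allows to call.

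**Figure D2:**
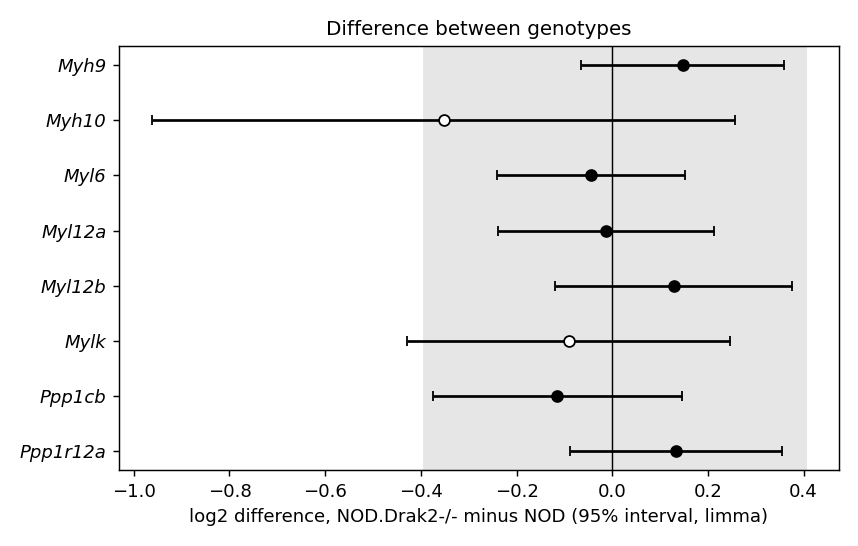
Log2 difference of NOD.Drak2-/- minus NOD for 8 genes (horizontal axis) with 95% intervals from limma; open circles are genes below the brightest background row, and the grey band holds the central 95% of all 19505 differences, from -0.39 to 0.40. Every interval includes 0, and every difference lies within the band.

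Some of the 7 genes above background varied together across the 12 arrays. Myl6 and Ppp1cb had an r of 0.79, but it was 0.95 within NOD.Drak2-/- and 0.22 within NOD, and fell to 0.47 without NOD.Drak2-/- replicates 1 and 2. Myh9 went with Myl12b (r = 0.70, Spearman 0.73, and 0.67 within NOD.Drak2-/- and 0.71 within NOD) and with Myl12a (r = 0.54), and Myl12a went with Myl12b (r = 0.65). With Ppp1cb the sign was negative for both Myh9 (-0.59) and Myl12b (-0.65). Ppp1r12a had an r between -0.04 and 0.20 with the other 6 genes above background, although within NOD it had 0.77 with Ppp1cb and -0.76 with Myl12b. These correlations are descriptions of arrays that share their processing. Of the 21 pairs among the 7 genes 10 had an r of at least 0.5 in size, where 20.4% of all pairs of genes above background did. At 0.7 in size it was 2 of the 21, beside 4.91% of all pairs. The median size of r was 0.35 for the 21 pairs and 0.28 for all pairs.

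**Figure D3:**
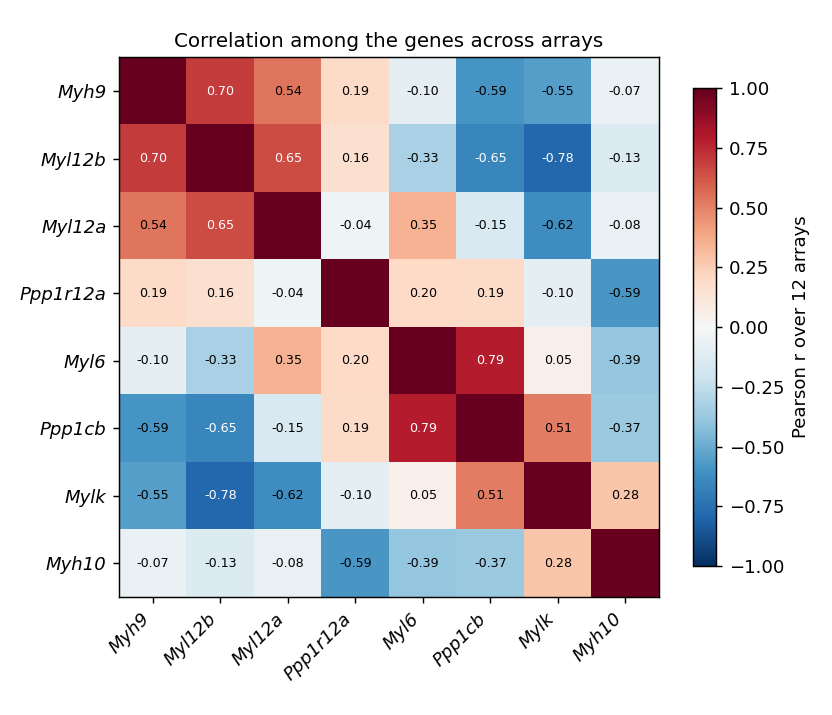
Pearson r over 12 arrays for each pair of 8 genes (rows and columns), from blue (-1) to red (1), with the value in each cell. Myh9, Myl12a and Myl12b form 1 block of positive values and Myl6 and Ppp1cb another, with mostly negative values between them; Mylk and Myh10 are below background.

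Some of these genes also moved with measures of the whole array. Ppp1cb had an r of -0.86 and Myl6 of -0.69 with the brightest background row of the array, and Myh9 and Myl12b had 0.60 and 0.57 (n = 12 arrays). For Myl12a and Ppp1r12a the r with that row was 0.15 and -0.02. With the mean of 20 heat shock and dissociation genes, Ppp1cb had an r of -0.68, and Myh9 and Myl12b 0.62 and 0.49. With the first principal component of the 8128 genes above background, which held 31.7% of their variance, the r was 0.89 for Ppp1cb and -0.79 for both Myh9 and Myl12b. The heat shock and dissociation mean was 7.99 and 7.92 in NOD.Drak2-/- replicates 1 and 2, 7.53 to 7.80 in the other NOD.Drak2-/- arrays and 7.57 to 7.88 in NOD. The mean of the T cell and regulatory T cell markers, 9.55 to 9.73 in NOD.Drak2-/- and 9.52 to 9.73 in NOD, had an r of 0.73 with Myl12a, 0.61 with Myh9 and 0.57 with Myl12b. The part of these array measures in the members' covariation was not tested. B cell markers had an r of -0.09 with Ppp1cb and -0.18 with Myh9, and their list mean ran from 4.79 to 5.48 in NOD.Drak2-/- and from 4.88 to 5.22 in NOD, with 2 of 12 markers above background. The list mean of stromal and smooth muscle markers ran from 4.48 to 4.65 in NOD.Drak2-/- and from 4.39 to 4.70 in NOD. Of these 16 markers 3 were above background, the brightest being Thy1, which mouse T cells also express, at a mean of 8.85. Acta2, Tagln and Myocd were not above background. The list mean of platelet markers ran from 5.24 to 5.43 in NOD.Drak2-/- and from 5.25 to 5.68 in NOD. Of these 7 markers 2 were above background, the brightest being Gp9 at a mean of 6.88, and Pf4 and Ppbp were not. Of 19 myeloid and dendritic markers 1 was above background, Cst3 at a mean of 10.46. Of 12 endothelial markers 1 was, Pecam1 at 9.18. Of 8 NK cell markers 2 were, the brightest being Nkg7 at 7.87. The part of other cell types in these signals was not tested.

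**Figure D4:**
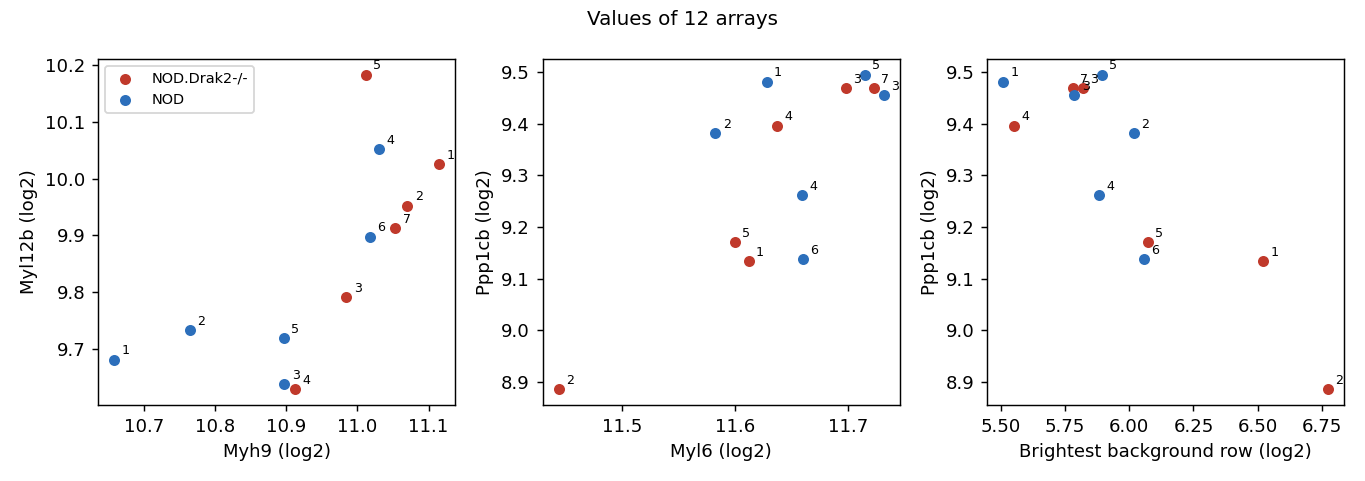
Log2 values of the 12 arrays, NOD.Drak2-/- in red and NOD in blue, numbered by replicate: Myl12b against Myh9 (left), Ppp1cb against Myl6 (middle), and Ppp1cb against the brightest background row of the array (right). NOD.Drak2-/- replicates 1 and 2, with background rows of 6.52 and 6.77, have the lowest Ppp1cb values.

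Outside the group, the genes whose pattern over the 12 arrays was most like that of Myh9 among 7911 named genes above background were Ubl7, Ankrd40, the Ras-family GTPase gene Rap2b, Wipf1, whose product binds and stabilises the actin regulator WASP, and Abcf1, with a Pearson r of 0.94 to 0.95. None of these 5 genes passed in limma (adjusted p from 0.483 to 0.528).

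The wider pathway gave a like picture. Over 8 lists with 132 distinct measured genes, 0 passed the adjusted p of 0.05 in limma (smallest adjusted p = 0.469), and 10 genes, or 7.58%, were at an unadjusted p under 0.05, beside 9.43% of all genes. Stk17b, which encodes Drak2 itself, is counted among the 132 and among these 10. Groups that did not overlap were found for 0 of the 132, beside 0.513% of all genes. The median difference of the 132 genes was 0.02. The medians of single lists, given as descriptions, changed in size with the array left out, and some changed in size or sign with dim genes left out.

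Another list held 16 kinase genes, not all of them established kinases of the light chain. The 2 with the smallest p were Dapk3, also known as ZIP kinase, at 0.64 (adjusted p = 0.469), and Stk17b at -0.27 (adjusted p = 0.517). Dapk3 averaged 6.96 ± 0.43 in NOD.Drak2-/- and 6.31 ± 0.43 in NOD (SD, n = 6 each), with all 6 NOD.Drak2-/- arrays above the NOD mean and overlapping ranges of 6.31 to 7.47 in NOD.Drak2-/- and 5.60 to 6.90 in NOD. The list had a median of -0.10, and its 10 members above background alone had one of 0.11. With 1 array left out the median over all 16 ran from -0.14 (without NOD.Drak2-/- replicate 4) to -0.022 (without NOD replicate 4 or NOD.Drak2-/- replicate 7), and it was -0.0071 without NOD.Drak2-/- replicates 1 and 2. The 12 other myosin phosphatase genes had a median of -0.06 (-0.0085 without NOD.Drak2-/- replicate 2, -0.028 without replicates 1 and 2). Over the 8 of them above background alone it was 0.014. Ppp1r14a, which encodes the phosphatase inhibitor CPI-17, differed by -0.36 (adjusted p = 0.485 in limma). The related Ppp1r14c differed by -0.25 (adjusted p = 0.597 in limma), and both were below background. The other catalytic subunit genes, named for their role after their values were seen, were bright: Ppp1ca had 10.82 in NOD.Drak2-/- and 10.82 in NOD, and Ppp1cc had 10.29 in NOD.Drak2-/- and 10.41 in NOD, with differences of -0.0011 and -0.12.

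Among 27 genes of the RhoA switch, which turns this GTPase on and off, the median was -0.004, and up to 0.036 with 1 array left out (NOD.Drak2-/- replicate 2). The exchange factor gene Ect2, active in cell division, differed by -0.73 (adjusted p = 0.519) below background, and the GTPase-activating protein gene Arhgap25 by 0.28 (adjusted p = 0.535). Rhoa itself, named after its values were seen, had 9.62 ± 0.20 in NOD.Drak2-/- and 9.65 ± 0.125 in NOD (SD, n = 6 each), and the exchange factor gene Arhgef1, a link from G protein-coupled receptors to RhoA in lymphocytes, had 9.36 in NOD.Drak2-/- and 9.30 in NOD. Among 7 calmodulin and calcium sensor genes the median was 0.05, but it was -0.050 without NOD.Drak2-/- replicate 7, 0.0085 without replicate 5 and 0.18 without replicates 1 and 2. Of these genes S100a11 differed by 0.14 (adjusted p = 0.709) and the calmodulin gene Calm2 by 0.09 (adjusted p = 0.775).

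Among 17 actin filament partners the median was 0.11, but it was 0.043 without NOD.Drak2-/- replicate 1, 0.064 without NOD replicate 1 and 0.057 without NOD.Drak2-/- replicates 1 and 2. It was larger without NOD.Drak2-/- replicate 4 (0.15) and under median centring (0.17). The tropomyosin genes Tpm3 and Tpm2 differed by 0.22 (adjusted p = 0.674) and -0.20 (adjusted p = 0.695), Tpm2 lying below background, and 0 were at an unadjusted p under 0.05.

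Of 17 other myosin II chain genes, mostly of striated and smooth muscle, only Myl3 had a mean above the background row, and Myl7 (-0.39) and Myh4 (-0.32), each with an adjusted p of 0.483, were below it in all 12 arrays. Of 22 unconventional myosins 9 were above background, among them Myo1g, a class I myosin of lymphocytes, at 10.15 in NOD.Drak2-/- and 10.10 in NOD. Myo7a differed by -0.31 (adjusted p = 0.515) and Myo18b by -0.24 (adjusted p = 0.535), the Myo18b signal being below background. The median of the unconventional myosins was 0.04, and 0.0094 to 0.057 with 1 array left out (lowest without NOD replicate 2). Over the 9 above background alone it was 0.17. The median of the other myosin II chain genes was -0.07. With 1 array left out it ran from -0.14 (without NOD.Drak2-/- replicate 4) to -0.014 (without NOD.Drak2-/- replicate 2). Myl3 alone, the gene of that list above background, had a difference of 0.078.

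**Figure D5:**
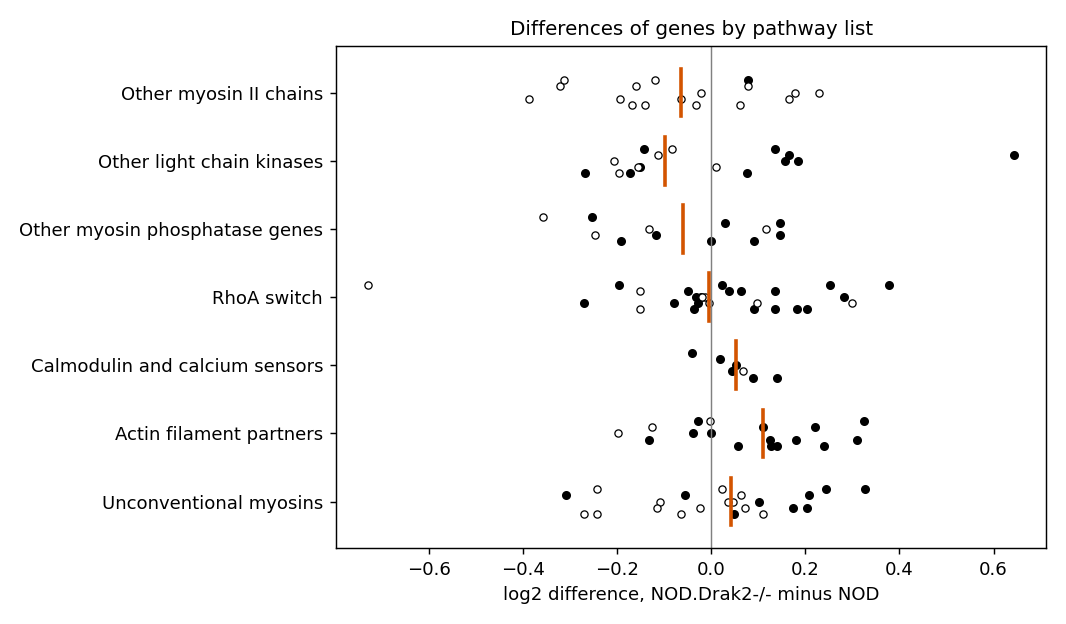
Log2 difference of NOD.Drak2-/- minus NOD (horizontal axis) for each gene of 7 pathway lists; filled points lie above the brightest background row, open points do not, and orange bars are list medians. List medians run from -0.10 to 0.11, and the widest differences are Dapk3 at 0.64 and Ect2 at -0.73.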

How the data were processed

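Values came from the authors' deposited table of log2 expression, 1 column per mouse. The submitters' processing notes name RMA and oligo, with no version; RMA by its usual definition corrects background, normalizes arrays by quantiles and summarises probes per row. Per the labels' protocols, 125 ng of RNA from sorted cells was labelled with biotin for 1-colour arrays. Arrays give no counts, so their number limits the precision.

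The platform annotation named 19572 rows with 1 symbol and 0 with several, and the brightest row per gene was kept (19505 genes, no filter on dim genes). Genotypes were compared with limma 3.58.1 in R 4.3.3 (lmFit, eBayes, no covariate) over all genes, with Benjamini-Hochberg adjustment. Single genes were also compared by exact permutation, two-sided, over the 924 possible regroupings (smallest possible p 0.00216), given without adjustment. The limma step was tested on simulated data with independent genes and differences larger than those of the members. That test does not cover genes that vary together or small differences. The members and gene lists were chosen with earlier results of these data known. The text names 8 members, Stk17b, the 2 genes with the smallest p of each of 7 pathway lists, marker genes, and the 5 genes most like Myh9; 1 member with a row and 1 pathway list are counted in the totals but not reported here. Alternatives were other normalizations, a filter on dim genes, mean rows, variance models, array weights, a replicate block, marker covariates and leaving out arrays. Background correction could not be varied. Promoter windows are from RefSeq.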

Additional observations from a re-analysis of the deposited data

Results flagged for a closer look

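Within each genotype the highest and the lowest of the 6 arrays were set against the others for the 9 genes, 18 groups in all, by the gap to the nearest array as a share of the range against Dixon's 95% critical value. Chance flags about 5% of groups. Mylk in NOD.Drak2-/- replicate 5, at 3.87, lay below the other 5 arrays by 0.662 of the range, within the background range. Ppp1r12a in NOD.Drak2-/- replicate 7, at 9.60, lay above the other 5 arrays by 0.638 of the range.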

How the results depend on the processing

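Each result was recomputed in 26 other settings, 12 of which left out 1 array and 2 of which (leaving out NOD.Drak2-/- replicates 1 and 2 together, and the brightest background row as a covariate) were chosen after seeing the data. In limma 0 of the 9 genes passed in any of them, the smallest adjusted p being 0.476, and 5 genes, among them Myl12b, Myh9, Myh10 and Ppp1r12a, kept their sign in all that tested them. The sign turned for Myl6 under median centring (0.022) and without both arrays (0.0019), for Myl12a under median centring (0.052) and the replicate block (0.013), for Mylk under cyclic loess (0.018), and for Ppp1cb without both arrays (0.0072). With 1 array left out, Myl12a ran from -0.040 to 0.026 and Mylk from -0.18 to 0.026. The median over the 9 genes was 0.022 under median centring, which raised the median of all genes by 0.07. Myh10 was -0.15 with the replicate block. The median of the calmodulin and calcium sensor genes was -0.025 with that block. The cause of these turns was not tested. Members at an unadjusted p under 0.05 numbered 0 to 1 with 1 array left out (Myh10 without NOD.Drak2-/- replicate 1) and 1, also Myh10, without both arrays. Members at an exact permutation p under 0.05 numbered 1 as reported, 2 under median centring (Myh9 and Ppp1r12a) and 0 under cyclic loess. They numbered 0 to 2 with 1 array left out, and 1 without both arrays. That 1 was Myh10, below background, with an exact permutation p of 0.0095 and an unadjusted limma p of 0.0021. Of all genes, 4 passed as reported, 1 to 2 with 1 array left out, 0 with the replicate block (1519 at an unadjusted p under 0.05), 1 with the B cell marker covariate, 7 with the heat shock and dissociation covariate, 2 without both arrays and 1 with the background row covariate. Replicate numbers 1 to 5 are shared by both genotypes, but same-numbered arrays deviated from their group means with an r of -0.18 to 0.09 across genes, so the numbers were not taken as pairs; the block changed no call among the 9 genes. The filter on dim genes removed Myh10 and Mylk, which have no value there, and another background correction was not run.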
